A study of Saccharomyces cerevisiae with 32 samples.

Results

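BAN and CMP are natural isolates of budding yeast, Saccharomyces cerevisiae, and were compared with each other directly. They are 2 of the 8 isolates of the series and account for 8 of its 32 libraries, with 2 mRNA libraries and 2 ribosome footprint libraries of each isolate. The pair was chosen by measured values: both isolates held more mRNA of respiratory genes and of mitochondrial reading frames than most other isolates. Those levels, set beside the other isolates, are therefore described here without a test. Differences between BAN and CMP in these genes were tested along with all others. The choice favours their being alike, so those calls are a description. The difference between BAN and CMP was known from earlier results of the same libraries when the pair and the gene lists were set. Both isolates are labelled wild type and were grown in SC (synthetic complete) medium, as were the other 6 isolates, AMH, BED, BPL, BTT, CPI and CQC; the sources used here give no ploidy, growth phase or origin for them. For each gene the mRNA level, the level of ribosome footprints (mRNA fragments that ribosomes protected from RNase I) and translation efficiency (TE), which is footprints relative to mRNA, were compared as BAN over CMP. Nothing in the labels states whether replicates were separate cultures; p-values thus reflect how far these particular libraries differ, and that spread can be technical.

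Budding yeast ferments glucose to ethanol while glucose is plentiful, and under that condition it represses the genes of the respiratory chain. When glucose runs low it respires instead, raises nuclear genes for the respiratory chain through the Hap2/3/4/5 complex and reads the few protein genes of its own mitochondrial genome. Which sugars it takes up depends on a large family of hexose transporters, and yeast also adjusts its vitamin, metal and sterol pathways to what the medium supplies: Thi2 and Thi3 raise thiamine genes when the vitamin is scarce, Zap1 raises zinc uptake, Upc2 raises sterol synthesis, and Hsf1 raises chaperones when proteins misfold.

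The mRNA libraries held 4100236 and 3703931 reads in BAN and 6128168 and 5783279 reads in CMP, on open reading frames. The footprint libraries were shallow, with 63336 and 27621 reads in BAN and 145164 and 99809 reads in CMP. Footprints and TE are therefore reported only for well-counted genes, those with a mean of at least 300 CPM over the 4 libraries. That mean takes in both isolates, so a gene can pass through the isolate where it is high. In the other isolate such a gene can rest on few reads. CPM here are counts on open reading frames relative to library size. Library sizes were scaled by the trimmed mean of M values (TMM) within each assay. The mRNA factors were 1.001 and 0.695 in BAN and 0.9395 and 0.8823 in CMP. A lower factor raises every CPM of its library, so BAN replicate 2 stands higher in mRNA CPM than in unscaled shares. The 2 BAN replicates differed widely gene by gene: the SD of the log2 difference between replicates was 0.547 for BAN mRNA, 0.241 for CMP mRNA and 0.126 to 0.339 for the others, and it was 2.31 for BAN footprints and 0.975 for CMP footprints. That SD includes counting error, which is large at low depth. Relative to counting error, as chi-square per degree of freedom between replicates, BAN mRNA was at 29.03, CMP mRNA at 16.08 and the others at 3.77 to 30.54 (AMH); BAN footprints were at 2.224, CMP footprints at 2.108 and the others at 2.035 to 9.299. For a given spread this chi-square ratio grows with depth, so it does not rank libraries of unlike depth. The BAN footprints also matched the BAN mRNA poorly, which is described below, before the footprint results.

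The values that chose the pair were as follows. The 41 nuclear genes for respiratory complexes and the ATP synthase summed to 30160 and 47070 CPM in the BAN libraries and to 32840 and 38570 CPM in the CMP libraries. The next isolate was CQC with a mean of 23650 CPM, and the other 5 isolates averaged 5520 to 12880 CPM. Mitochondrial open reading frames took 11.85% ± 0.038 of the mRNA reads in BAN and 11.66% ± 0.35 in CMP (SD, n = 2 each). In CQC they took more, 20.22% ± 1.49, and in the remaining 5 isolates 1.34% to 7.83%. The sums carry the TMM factors, 1.001 and 0.695 for the BAN libraries, while the shares are unscaled. These sums and shares describe the choice and support nothing further.

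**Figure D1:**
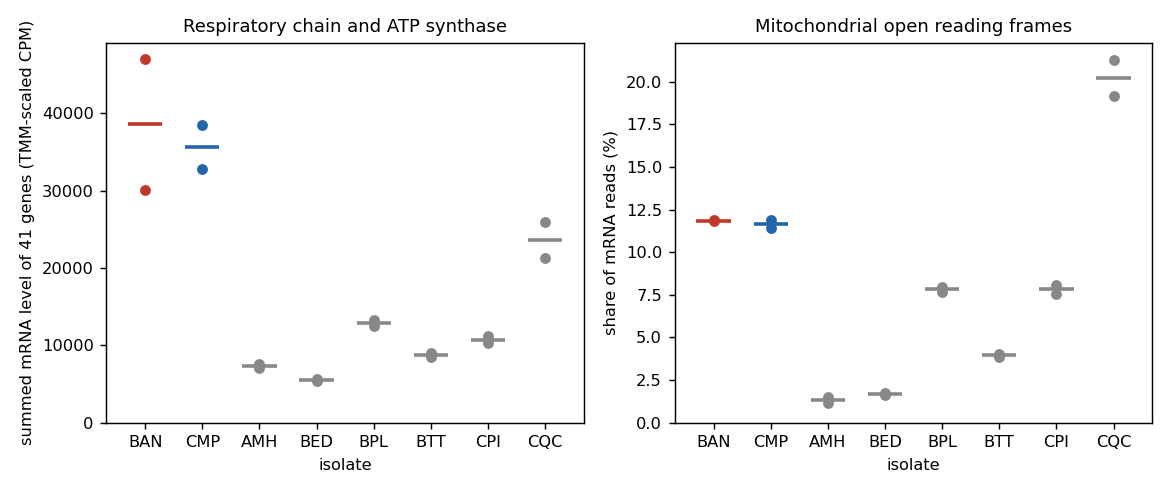
Summed mRNA level of the 41 nuclear respiratory genes (left, TMM-scaled CPM) and share of mRNA reads on mitochondrial open reading frames (right, %) in the 8 isolates; points are libraries and bars are means. BAN and CMP lie above the other isolates on the left and below CQC on the right. The BAN libraries on the left are at 30160 and 47070 CPM, with TMM factors of 1.001 and 0.695.

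Of 6269 open reading frames tested in mRNA with edgeR's quasi-likelihood test over all 16 mRNA libraries, 824 (13.1%) were higher in BAN and 1100 (17.5%) were lower, at an adjusted p under 0.05; 30.7% were called in all. In 3516 genes (56.1%) both BAN libraries lay beyond both CMP libraries. Scaled by library totals instead of TMM, which moved the median of all genes by -0.10 (log2), 591 were higher and 1251 lower. Among the 28 pairs of isolates this was the third smallest number of calls. Since that test pools the spread of all isolates, whose replicates varied to different degrees, 2 other fits stand beside it: limma voom with one weight per isolate called 297 higher (4.74%) and 263 lower (4.2%), and the 4 BAN and CMP libraries alone gave 149 higher (2.57%) and 143 lower (2.46%). Leaving out either CMP library gave 406 or 414 higher and 732 or 735 lower. Counts for gene groups below give the pooled test first and then how many of those calls remained with isolate weights. An mRNA call of a named gene remained when any 1 of the 4 libraries was left out, unless said otherwise.

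**Figure D2:**
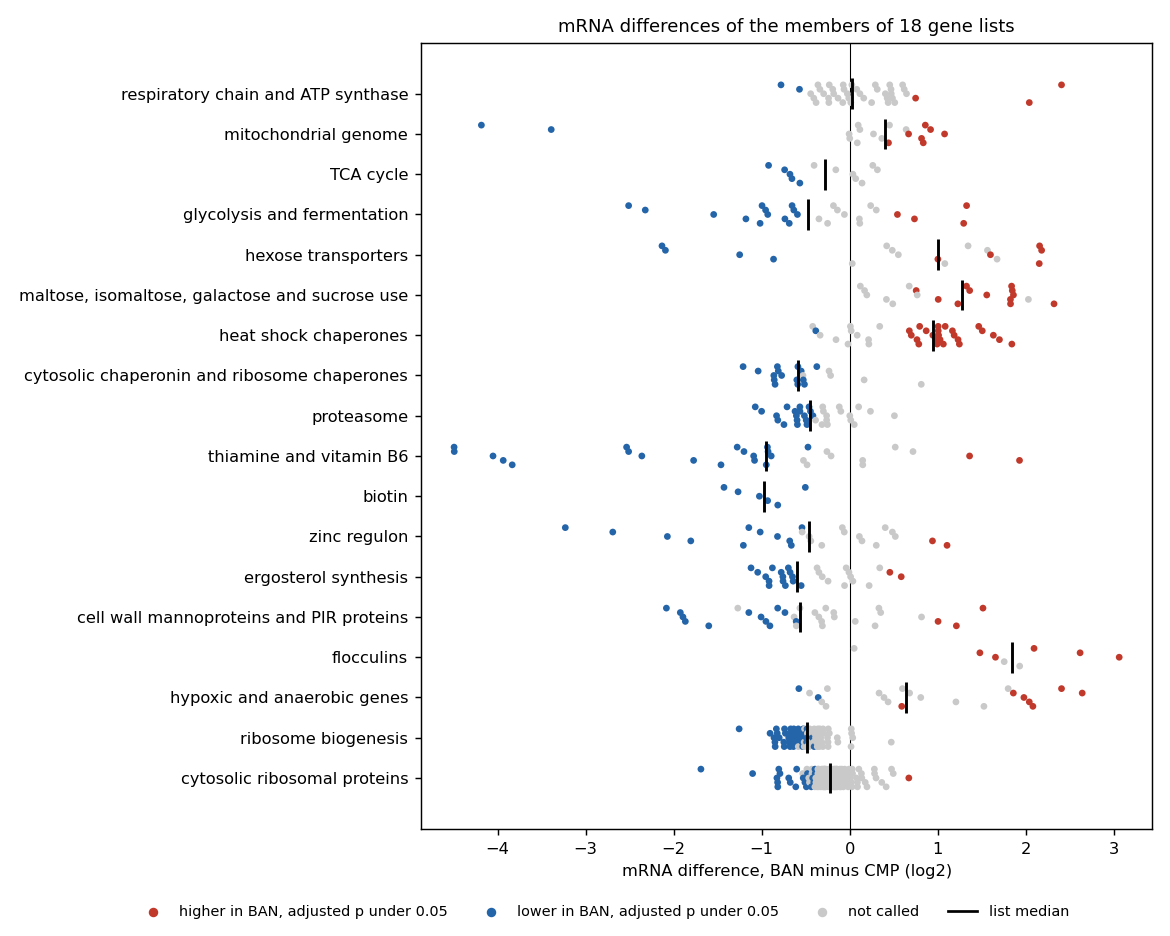
mRNA differences, BAN minus CMP on the log2 scale, of the members of 18 gene lists; each point is a gene, coloured where called with edgeR's quasi-likelihood test, and the black bars are list medians. The heat shock, flocculin and maltose lists lie to the right (medians 0.94, 1.84 and 1.28), the thiamine, biotin and ergosterol lists to the left (-0.95, -0.98 and -0.60), and the respiratory list is centred at 0.02.

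Respiratory genes were nearly level between BAN and CMP as a list, which the choice of the pair for high levels in both favours. Nothing is drawn from that likeness. CYC7 and COX5B, isoforms known from low-oxygen growth, were higher in BAN. Of the 41 nuclear genes 3 were higher in BAN and 2 lower, with a median difference of 0.02 (log2); 2 and 1 of these remained with isolate weights, and the number higher was 15 without BAN replicate 1, and the number lower was 13 without BAN replicate 2 and 1 without any other 1 library. CYC7 (chromosome V, 79636 to 79977), which encodes the minor isoform of cytochrome c, had 378 and 647 CPM in the BAN libraries and 88.1 and 105 CPM in the CMP libraries. Both BAN libraries exceeded both CMP libraries and also the highest mean of the other 6 isolates, 103.8 CPM, and the difference was 2.40 ± 0.27 (log2, SE; adjusted p 3.3e-05, edgeR). COX5B (chromosome IX, 155222 to 155765), the alternative subunit 5 of cytochrome c oxidase, had 265 and 644 CPM in BAN and 100.7 and 119.5 CPM in CMP, a difference of 2.04 ± 0.32 (adjusted p 0.0005, edgeR). CYC1, the major cytochrome c, was at 409.8 and 419.6 CPM in BAN and 302 and 290.0 CPM in CMP and was not called (adjusted p 0.154, edgeR). ATP1, the alpha subunit of the ATP synthase, was lower in BAN, with 1095 and 1573 CPM against 2254 and 2329 CPM in CMP (-0.78 ± 0.17, adjusted p 0.0035, edgeR; lost with the 4 libraries alone).

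Regulators of respiration and mitochondrial genes differed singly. HAP4, the activating subunit of the Hap complex, had 997 and 1611 CPM in BAN and 1099 and 1021 CPM in CMP and was not called (adjusted p 0.412, edgeR). HAP1 (chromosome XII, 646415 to 650923), the heme-responsive regulator of respiratory genes, was lower in BAN, at 112.3 and 151.5 CPM against 223.5 and 269 CPM in CMP (-0.91 ± 0.18, adjusted p 0.00202, edgeR); the call was lost with the 4 libraries alone. AEP3 (chromosome XVI, 548486 to 550306), which acts in expression of the mitochondrial ATP6 and ATP8 message, had 409 and 667 CPM in BAN and 130.8 and 123 CPM in CMP, with 20.1 to 88.6 CPM in the other 6 isolates. AEP3 was 2.08 ± 0.19 higher in BAN (log2; adjusted p 8.8e-06, edgeR), and ATP6 itself had 10900 and 14880 CPM in BAN and 5972 and 6251 CPM in CMP (1.08 ± 0.19, adjusted p 0.00104, edgeR; lost with the 4 libraries alone). Of the 18 mitochondrial genes on the list 7 were higher in BAN and 2 lower (5 and 2 with isolate weights; 0 and 2 with the 4 libraries alone in edgeR, where 5 were higher at an unadjusted p under 0.05). The number higher was 11 without BAN replicate 1, 4 without BAN replicate 2, 4 without CMP replicate 1 and 3 without CMP replicate 2. COB, the cytochrome b gene, was level, at 16110 and 21380 CPM in BAN and 17290 and 17790 CPM in CMP. The 2 lower members were reading frames inside introns of COX1: AI2 had 1403 and 2219 CPM in BAN and 18660 and 19300 CPM in CMP, and AI5_BETA had 41.4 and 82.0 CPM in BAN and 1105 and 1100 CPM in CMP. These frames overlap the COX1 transcript, so their reads cannot be assigned with certainty.

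Lower glycolysis mRNA was lower in BAN, with 7 of its 9 genes called lower and a median of -0.93. In upper glycolysis 2 of 10 were higher and 3 lower, with a median of -0.22, and in fermentation 2 of 7 were higher and 3 lower, with a median of 0.11. Of all 26 genes 13 were lower and 4 higher, with a median of -0.47 against 0.00 over all genes tested. With isolate weights 10 of the 13 and 1 of the 4 remained, and with the 4 libraries alone 5 and 1. The number higher was 1 without BAN replicate 2 and without CMP replicate 1, and 2 without CMP replicate 2. PDC1 (chromosome XII, 232390 to 234081), the main pyruvate decarboxylase, which opens the route to ethanol, had 233 and 314 CPM in BAN and 794 and 800 CPM in CMP, a difference of -1.54 ± 0.16 (log2; adjusted p 2.7e-05, edgeR). Its isozyme PDC5 had 106.5 and 102.6 CPM in BAN and 541 and 652 CPM in CMP (-2.51 ± 0.19, adjusted p 2.3e-06, edgeR), while the other 6 isolates averaged 4.69 to 80.6 CPM. The libraries of the isolates did not overlap for either gene. ENO2, an enolase, had 685 and 742 CPM in BAN and 1183 and 1538 CPM in CMP (-0.93 ± 0.20, adjusted p 0.0033, edgeR; lost with the 4 libraries alone). HXK2 (chromosome VII, 23935 to 25395), the hexokinase that also takes part in glucose repression, went the other way, with 341 and 393 CPM in BAN and 138.4 and 154 CPM in CMP (1.33 ± 0.14, adjusted p 3e-05, edgeR). ADH1, the main fermentative alcohol dehydrogenase, was not called in mRNA (adjusted p 0.144, edgeR). In the TCA cycle 5 of 12 genes were lower and 0 higher, with a median of -0.28 (4 remained with isolate weights, and 0 with the 4 libraries alone in edgeR, where 4 were lower at an unadjusted p under 0.05).

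Sugar transport and disaccharide use differed gene by gene. Of 17 hexose transporters 5 were higher in BAN and 4 lower (4 and 2 with isolate weights), and 9 were higher without BAN replicate 2. HXT9 and HXT11, a near-identical pair whose reads the counting may have split, were higher in BAN: HXT11 (chromosome XV, 25273 to 26976) had 148.4 and 204 CPM in BAN and 41.5 and 36.1 CPM in CMP, against at most 4.92 CPM in the other 6 isolates. The pair HXT15 and HXT16, likewise near-identical, was lower: HXT16 had 196 and 209.8 CPM in BAN and 830.4 and 948 CPM in CMP (-2.13 ± 0.24, adjusted p 4.4e-05, edgeR). The abundant high-affinity pair HXT6 and HXT7 was the bulk of the family in both isolates, with HXT6 at 19160 and 39000 CPM in BAN and 18030 and 23580 CPM in CMP, and was not called (adjusted p 0.212 for HXT6, edgeR). HXT4 was higher in BAN, at 351 and 309 CPM against 156.5 and 173.6 CPM in CMP (1.001 ± 0.17, adjusted p 0.000795, edgeR). The sorbitol dehydrogenase pair SOR1 and SOR2, of near-identical sequence, was all but silent in the other 6 isolates, with means of at most 6.12 CPM. SOR2 (chromosome IV, 8683 to 9756) had 240 and 218 CPM in BAN and 1277 and 2048 CPM in CMP, a difference of -2.86 ± 0.25 (adjusted p 7.2e-06, edgeR).

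Genes for maltose, isomaltose, galactose and sucrose were higher in BAN: 12 of 20, with 0 lower and a median of 1.28; 7 of the 12 remained with isolate weights and 7 with the 4 libraries alone, and without CMP replicate 1 the number was 8. All 5 isomaltase genes were among them, with 3 of 8 maltose genes and 4 of 7 galactose and sucrose genes. Those 4 include GAL10 and GAL7, whose very low counts are given below. IMA2 (chromosome XV, 22525 to 24294) had 1511 and 2435 CPM in BAN and 509.9 and 588 CPM in CMP (1.85 ± 0.23, adjusted p 7.4e-05, edgeR), and at most 44.1 CPM in the other 6 isolates; IMA2, IMA3 and IMA4 are near-identical. SUC2, the secreted invertase, had 11180 and 21100 CPM in BAN and 5725 and 6832 CPM in CMP (1.36 ± 0.27, adjusted p 0.00256, edgeR), which is above the highest of the other isolates, 3654 CPM; the call was lost with the 4 libraries alone. GAL10 and GAL7 were called from very low counts, GAL7 at 6.82 and 1.17 CPM in BAN and 1.22 and 1.18 CPM in CMP, and lost the call without BAN replicate 1 and without either CMP library.

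Heat shock chaperone mRNA was higher in BAN, and a part of Hsf1 in this was not tested. On the heat shock list of 35 genes, 24 rose and 1 fell, with a median of 0.94; 20 of the 24 remained with isolate weights and 7 with the 4 libraries alone, and the number was 17 without BAN replicate 2 and 27 without BAN replicate 1; the number that fell was 3 without BAN replicate 2 and 0 without CMP replicate 1. Summed over the list, the level was 76850 and 132700 CPM in BAN and 49510 and 46520 CPM in CMP, and 11570 to 19500 CPM in the other 6 isolates, so CMP stood high as well. HSP104 (chromosome XII, 88623 to 91349), which pulls proteins out of aggregates, had 13130 and 26270 CPM in BAN and 6314 and 6403 CPM in CMP (1.63 ± 0.26, adjusted p 0.00066, edgeR; lost with the 4 libraries alone). BTN2 (chromosome VII, 772454 to 773686), which sorts misfolded proteins into deposits, had 10240 and 20330 CPM in BAN and 4095 and 4435 CPM in CMP (1.84 ± 0.25, adjusted p 0.00016, edgeR), and its partner CUR1 had 194 and 316 CPM in BAN and 100.2 and 83.3 CPM in CMP. HSP26, a small chaperone that holds unfolded proteins, had 2147 and 3951 CPM in BAN and 916 and 959.7 CPM in CMP (1.70 ± 0.25, adjusted p 0.00031, edgeR). HSF1 itself had 121.3 and 132 CPM in BAN and 66.9 and 54.1 CPM in CMP (1.06 ± 0.13, adjusted p 0.0001, edgeR). In each of these genes the lower BAN library still exceeded both CMP libraries. Of all genes tested, 56.1% had both BAN libraries beyond both CMP libraries, in either direction. The genes were named mostly for large called differences, so their separation follows in part from the choice.

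Proteasome and chaperonin genes were lower in BAN, while other lists of protein upkeep were mixed. Of 33 proteasome subunits 18 were lower and 0 higher, with a median of -0.45; 8 remained with isolate weights and 2 with the 4 libraries alone, and the number lower was 9 without CMP replicate 1, while 3 were higher without BAN replicate 1. RPN1, a subunit in the base of the regulatory particle, had 146.7 and 159 CPM in BAN and 338 and 273 CPM in CMP (-1.001 ± 0.14, adjusted p 0.00018, edgeR). Of 20 genes of the cytosolic chaperonin and the chaperones at the ribosome 15 were lower and 0 higher, with a median of -0.59. Of the 15, 9 remained with isolate weights and 1 with the 4 libraries alone. CCT6, a chaperonin subunit, had 167 and 158 CPM in BAN and 329 and 340.0 CPM in CMP. Of 17 chaperones of the endoplasmic reticulum 4 were higher and 2 lower, with a median of -0.04, and 0 were lower without CMP replicate 1 and 1 without CMP replicate 2. Of 26 genes for vacuolar proteases and autophagy 7 were higher and 5 lower, with a median of 0.17, but 2 and 2 without CMP replicate 1, 4 were higher without BAN replicate 2, and 1 was lower without CMP replicate 2. The general stress genes, targets of Msn2 and Msn4, were mixed, with 7 higher and 4 lower of 35; 19 were higher without BAN replicate 1 and 11 lower without BAN replicate 2. PNC1, a nicotinamidase, rose to 1311 and 2899 CPM in BAN, against 657 and 659 CPM in CMP, and HSP12, a small membrane chaperone, was lower at 654 and 1182 CPM in BAN, against 2129 and 2925 CPM in CMP (-1.46 ± 0.25, adjusted p 0.00097, edgeR; lost with the 4 libraries alone).

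**Figure D3:**
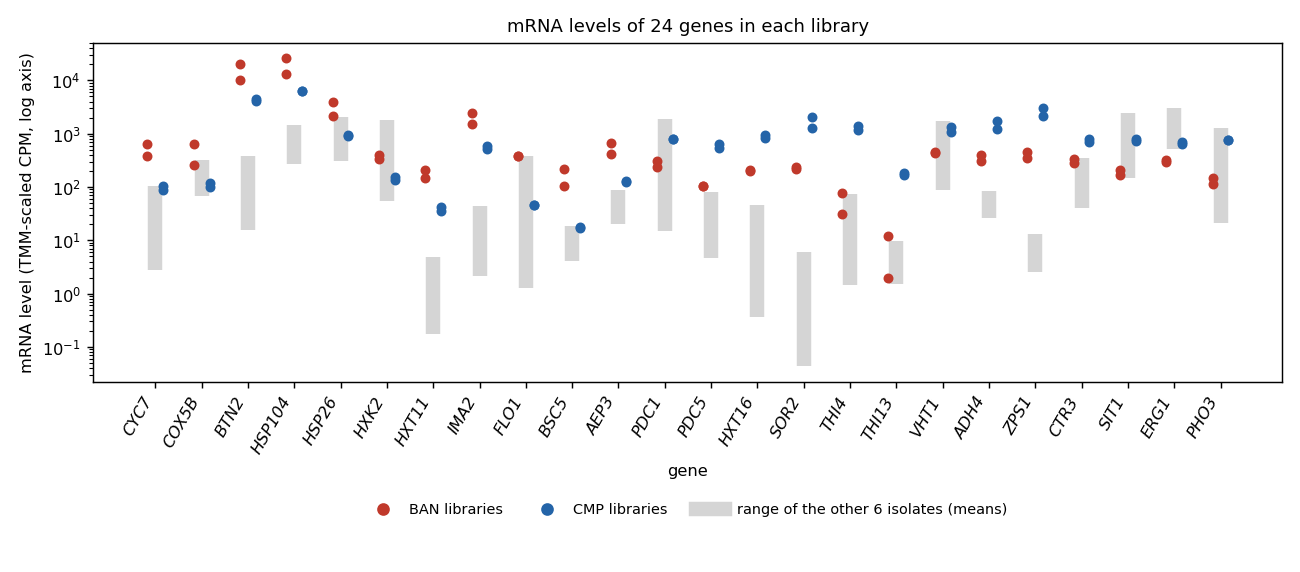
mRNA levels of 24 genes (TMM-scaled CPM, log axis) in each BAN and each CMP library, with grey bars for the range of the means of the other 6 isolates. In every gene shown both BAN libraries lie on the same side of both CMP libraries, as in 56.1% of all genes tested. The genes were picked from the named ones, so this separation follows in part from the choice. SOR2, ZPS1, IMA2 and HXT11 lie above the other 6 isolates in both, and THI4, PDC5 and VHT1 lie higher in CMP.

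Thiamine genes were far lower in BAN than in CMP. Of 29 genes for thiamine and vitamin B6, 19 were lower in BAN and 2 higher, with a median of -0.95; 16 and 1 remained with isolate weights and 15 and 1 with the 4 libraries alone. THI4 (chromosome VII, 780399 to 781379), which makes the thiazole ring of thiamine and is consumed in doing so, had 78.5 and 31.5 CPM in BAN and 1170 and 1368 CPM in CMP. The other 6 isolates averaged 1.45 to 74.6 CPM, so that CMP stood apart from every isolate, and the difference was -4.49 ± 0.32 (log2; adjusted p 9.7e-07, edgeR). THI5, THI11, THI12 and THI13, which make the pyrimidine ring, were also lower, at 0.777 to 18.3 CPM in BAN and 146 to 186 CPM in CMP; the 4 copies are near-identical and their reads may have been shared among them. PHO3, a phosphatase that frees thiamine from its phosphate, had 147.9 and 115.8 CPM in BAN and 767 and 764.5 CPM in CMP (-2.53 ± 0.18, adjusted p 9.7e-07, edgeR). The 2 genes higher in BAN belong to vitamin B6: SNZ1, which makes pyridoxal phosphate, had 410.1 and 966 CPM in BAN and 215 and 145 CPM in CMP (1.93 ± 0.30, adjusted p 0.00047, edgeR), and SNO1, its partner, lost its call without BAN replicate 2 and without CMP replicate 2.

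Biotin and zinc genes were lower in BAN as well. All 6 biotin genes were called lower, with a median of -0.98 (4 with isolate weights, 2 with the 4 libraries alone). VHT1 (chromosome VII, 618077 to 619858), the biotin transporter, had 442 and 459 CPM in BAN and 1069 and 1354 CPM in CMP (-1.43 ± 0.17, adjusted p 6e-05, edgeR). Of 25 genes of the zinc regulon 11 were lower and 2 higher, with a median of -0.46 (5 and 2 with isolate weights, 6 and 0 with the 4 libraries alone); 1 was higher without CMP replicate 1. ADH4 (chromosome VII, 15159 to 16307), an alcohol dehydrogenase induced when zinc is short, had 306 and 404 CPM in BAN and 1216 and 1763 CPM in CMP, against 25.8 to 83.0 CPM in the other 6 isolates (-2.07 ± 0.18, adjusted p 7.4e-06, edgeR). ZPS1 (chromosome XV, 34658 to 35407), a wall protein of the same regulon, had 463 and 346 CPM in BAN and 2146 and 3089 CPM in CMP, against at most 13.2 CPM elsewhere. Both isolates were thus above the rest for these genes and CMP more so. ZAP1, the regulator, had 77.0 and 106.1 CPM in BAN and 98.8 and 151.7 CPM in CMP and was not called (adjusted p 0.0985, edgeR), and neither was ZRT1, the high-affinity zinc transporter, at 6082 and 8205 CPM in BAN and 6691 and 8220 CPM in CMP.

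Metal uptake beyond zinc showed single large differences. SIT1 (chromosome V, 27657 to 29543), a transporter of iron-siderophore complexes, had 171 and 212.5 CPM in BAN and 741 and 791 CPM in CMP (-2.001 ± 0.16, adjusted p 3e-06, edgeR). In the iron regulon 4 of 27 genes were higher and 3 lower, and the median was -0.02; 9 were higher without BAN replicate 1, 2 without CMP replicate 1, and 7 were lower without BAN replicate 2. CTR3 (chromosome XII, 947253 to 947978), a high-affinity copper transporter, had 277 and 336 CPM in BAN and 801 and 697 CPM in CMP (-1.29 ± 0.14, adjusted p 3.3e-05, edgeR); 4 of 8 copper genes were lower and 2 higher (2 and 2 with isolate weights), and 2 were lower without BAN replicate 1. In the phosphate regulon 4 of 27 were higher and 4 lower, and 2 were lower without CMP replicate 1.

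Sterol and cell wall genes differed in opposite senses by family. Of 28 ergosterol genes 15 were lower in BAN and 2 higher, with a median of -0.60; 8 and 0 remained with isolate weights and 3 and 0 with the 4 libraries alone (edgeR), and 0 were higher without BAN replicate 2 or either CMP library. ERG1 (chromosome VII, 846933 to 848423), squalene epoxidase, had 319 and 297 CPM in BAN and 649 and 692 CPM in CMP (-1.12 ± 0.13, adjusted p 6e-05, edgeR), and ERG6, the sterol methyltransferase, had 63.6 and 56.7 CPM in BAN and 126 and 123 CPM in CMP (-1.04 ± 0.15, adjusted p 0.00022, edgeR). Both isolates lay below the lowest of the other 6 for ERG6, 283.5 CPM. Of 31 mannoprotein and PIR wall genes 12 were lower and 3 higher (3 and 1 with isolate weights); PIR3, a structural wall glycoprotein, had 23.1 and 32.6 CPM in BAN and 115 and 117 CPM in CMP. Flocculins, the lectins by which cells clump or adhere, were higher: 5 of 8, with a median of 1.84 (4 with isolate weights). FLO1 (chromosome I, 203403 to 208016) had 375 and 388.5 CPM in BAN and 45.9 and 45.7 CPM in CMP, a difference of 3.06 ± 0.39 (adjusted p 0.00012, edgeR); FLO1, FLO5 and FLO9 share repeats, so their counts are not independent. FLO11, which has its own sequence, had 189 and 205.5 CPM in BAN and 65.3 and 76.2 CPM in CMP (1.48 ± 0.28, adjusted p 0.0017, edgeR).

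Ribosome biogenesis genes and translation factors were lower in BAN by small amounts. Of 79 ribosome biogenesis genes 39 were lower and 0 higher in edgeR's test, with a median of -0.49, but 2 remained with isolate weights, and without CMP replicate 2 the number was 11. Of 43 translation factors 20 were lower and 0 higher (7 with isolate weights); 13 were lower without BAN replicate 1, 11 without CMP replicate 1 and 10 without CMP replicate 2. Of 138 cytosolic ribosomal proteins 20 were lower and 1 higher (6 and 0 with isolate weights), with a median of -0.23; 9 were lower without CMP replicate 2, and 3 higher without BAN replicate 1. That is a smaller share lower than the 17.5% over all genes tested. Genes well counted in footprints leaned lower in BAN mRNA as a whole, with 29.4% called lower and a median of -0.21. Among these, 110 ribosomal proteins had a median of -0.25 and 17 translation factors one of -0.30. With the 4 libraries alone 3 of the 39 ribosome biogenesis calls, 3 of the 20 translation factor calls and 2 of the 20 ribosomal protein calls remained. RLP24, a factor in assembly of the large subunit, had 66.0 and 80.8 CPM in BAN and 166.7 and 182 CPM in CMP (-1.26 ± 0.18, adjusted p 0.00026, edgeR). PAB1, the poly(A)-binding protein, had 275 and 329 CPM in BAN and 642.5 and 624 CPM in CMP. Of 59 genes for synthesis of arginine, lysine and other amino acids 20 were lower and 5 higher (11 and 1 with isolate weights); 13 were lower without CMP replicate 2, and 10 were higher without BAN replicate 1 and 2 without any other 1 library. The lysine genes gave 7 of the 20, out of 8 on the list, with a median of -0.96. LYS20 (chromosome IV, 133437 to 134723), the homocitrate synthase that begins the pathway, had 45.1 and 58.3 CPM in BAN and 266 and 214 CPM in CMP (-2.23 ± 0.20, adjusted p 8.8e-06, edgeR). LYS9, a later step, had 72.6 and 59.8 CPM in BAN and 150.2 and 212 CPM in CMP.

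Calls among genes of haploid cells and of sporulation hung on single libraries. Of 20 sporulation genes 7 were called higher in BAN, but 0 without BAN replicate 1, 16 without BAN replicate 2, 1 without CMP replicate 1 and 3 without CMP replicate 2 (edgeR), and their summed level was 309 and 110.7 CPM in BAN against 76.4 and 104 CPM in CMP. Of 20 haploid and mating genes 5 were called higher, 2 without BAN replicate 1 or CMP replicate 1, 3 without CMP replicate 2 and 14 without BAN replicate 2. Nothing is drawn from either list.

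Among all genes with a symbol, the largest rises in BAN also included genes outside these lists. DIA1 (chromosome XIII, 904825 to 905835), named for growth into agar, had 369 and 596 CPM in BAN and 72.2 and 66.8 CPM in CMP (2.79 ± 0.21, adjusted p 1.9e-06, edgeR). MRK1 (chromosome IV, 312951 to 314748), a kinase of the glycogen synthase kinase 3 family, had 1674 and 4071 CPM in BAN and 386 and 492 CPM in CMP, and at most 293 CPM in the other 6 isolates (2.71 ± 0.40, adjusted p 0.00033, edgeR). UBC4, a ubiquitin-conjugating enzyme, had 563 and 931 CPM in BAN and 183.6 and 148 CPM in CMP (2.17 ± 0.20, adjusted p 8.8e-06, edgeR). Among the largest falls, AQY1 (chromosome XVI, 921860 to 922777), a water channel, had 15.3 and 5.44 CPM in BAN and 91.9 and 127 CPM in CMP (-3.31 ± 0.46, adjusted p 0.00022, edgeR).

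No nuclear chromosome was shifted as a whole: the median difference per chromosome ran from -0.08 to 0.06. Within 25 kb of the outermost annotated gene of a chromosome, 29.3% of 321 genes were higher in BAN and 15.3% lower, and 18.1% were called with a difference of at least 2 (log2). Further in, 12.4% of 5521 genes were higher and 18.9% lower, and 1.59% were called with such a difference. Many genes near the ends belong to families of near-identical copies, among them the FLO, HXT, IMA, SOR and THI genes named above. This contrast is a count and was not tested.

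The BAN footprints stand apart from the BAN mRNA, which bears on all that follows. Across 840 open reading frames with a mean of at least 200 CPM in footprints over the isolates, the footprint profile of BAN correlated with its own mRNA profile at r = 0.41, with that of CMP at 0.39 and with those of AMH and BTT at 0.42 each. In the other 7 isolates the correlation with the own mRNA was 0.70 to 0.78 and was the highest of its row; for CMP it was 0.72. The single BAN footprint libraries correlated with BAN mRNA at 0.35 and 0.45, and the CMP ones with CMP mRNA at 0.74 and 0.68. BAN replicate 1, the deeper one, correlated with AMH and BTT mRNA at 0.43 and 0.45, above its 0.35 with BAN mRNA. BAN replicate 2 correlated with AMH and BTT mRNA at 0.4 and 0.38, below its 0.45 with BAN mRNA. Between the isolates, BAN and CMP mRNA correlated at r = 0.93. BAN and CMP footprints correlated at 0.75, above the 0.32 to 0.63 of BAN footprints with those of the other 6 isolates. These values are across genes, which are not independent replicates, and they are a description. The BAN footprint libraries were the shallowest, with 63336 and 27621 reads. Over a wider set of frames they correlated with each other at r = 0.48, against 0.83 in CMP and 0.919 to 0.985 in the others. Low depth lowers such correlations, and how far it does so here was not tested. What sets the BAN footprints apart was not tested. Whether these libraries carry a wrong label, or hold footprints of other isolates such as AMH and BTT, was not tested either. Each footprint or TE difference below is one between the libraries labelled BAN and CMP.

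**Figure D4:**
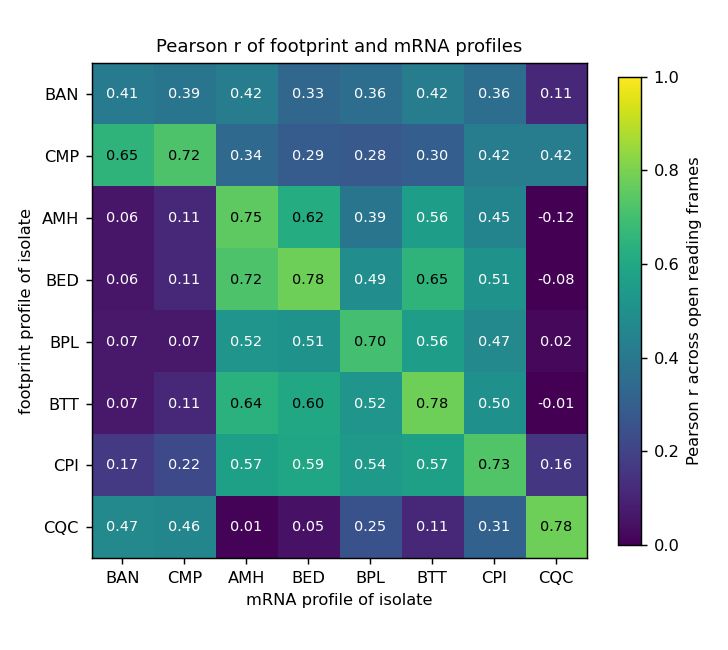
Pearson r of each isolate's footprint profile (rows) with each isolate's mRNA profile (columns) across 840 open reading frames, on log2(CPM + 1). The diagonal is 0.70 or more in 7 isolates and 0.41 in BAN, whose row holds values of 0.33 to 0.42 for all mRNA profiles except that of CQC (0.11).

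In footprints, 25 of 522 well-counted genes (4.79%) were higher in BAN and 32 (6.13%) were lower with edgeR's test over all 16 footprint libraries; limma voom with isolate weights called 16 and 17 (3.07% and 3.26%), and the 4 libraries alone gave 27 and 25 (5.17% and 4.79%). Over all 5347 genes tested in footprints 2.06% were called, 1.2% higher and 0.86% lower. The larger share among well-counted genes is not free of the filter, which a high level in 1 isolate can pass. Scaled by library totals, 34 were higher and 28 lower. Without BAN replicate 1, the deeper one, 6 were higher and 14 lower, and without CMP replicate 1 the number higher was 11. In TE, 45 of 521 (8.64%) were higher and 13 (2.5%) lower, and the 4 libraries of each assay alone gave 31 (5.97%) and 7 (1.35%). Over all 5337 genes tested in TE 2.15% were called, 1.69% higher and 0.468% lower. With isolate weights 9 were higher in TE (1.73%) and 0 lower, where limma voom had 31 genes lower at an unadjusted p under 0.05 and DESeq2 called 35. Without BAN replicate 1 the TE calls were 13 higher and 17 lower, without BAN replicate 2 they were 66 and 2, without CMP replicate 1 they were 22 and 2, and without CMP replicate 2 the number lower was 8.

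Thiamine genes, and SOR2, ZPS1 and ADH4, were lower in BAN footprints as in mRNA. Of 7 well-counted thiamine genes 6 were lower in BAN footprints (4 with isolate weights), with a median of -4.07. Synthesis genes made up 4 of the 7, all called lower, with a median of -6.07. The other 3, for uptake, regulation and use, had 2 called lower and a median of -1.43. Any near-identical THI copies among the synthesis genes may share reads, so these calls are not all independent. THI4 had 165 and 27.3 footprint CPM in BAN and 2051 and 1879 footprint CPM in CMP, a difference of -4.07 ± 0.48 (log2; adjusted p 4.8e-06, edgeR) beside -4.49 in mRNA. ZPS1 had 358 and 191 footprint CPM in BAN and 2477 and 3722 footprint CPM in CMP (-3.37 ± 0.41, adjusted p 1.1e-05, edgeR), and SOR2 had 124 and 137 in BAN and 1156 and 1596 in CMP (-3.41 ± 0.35, adjusted p 9.4e-07, edgeR). For ADH4 the footprint difference was -2.90 ± 0.37 and the mRNA difference -2.07. The footprint calls of THI4, ZPS1, SOR2 and ADH4 remained with isolate weights. THI4 and SOR2 were below 300 footprint CPM in both BAN libraries, and ZPS1 was in BAN replicate 2. THI4 and SOR2 thus passed the filter through CMP, and in BAN they rest on few reads. The set of well-counted genes was the same in every fit, so a call that remained does not test that entry. Of 10 well-counted zinc genes 5 were lower and 1 higher in footprints (4 and 1 with isolate weights). ZRT1, among the 5, differed between the assays: its footprints were lower in BAN, at 1792 and 1750 CPM against 5157 and 5265 CPM in CMP (-1.55 ± 0.21, adjusted p 2.9e-05, edgeR), while its mRNA was level, giving a TE difference of -1.49 ± 0.28 (adjusted p 0.0027, edgeR; lost without CMP replicate 1 and with isolate weights).

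The heat shock rise in mRNA was not seen in footprints. Small footprint differences held for well-counted genes with higher BAN mRNA in general, with a median of 0.285 beside 1.083 in mRNA. Of 20 well-counted heat shock genes 0 were called in BAN footprints (edgeR and limma voom; 2 higher and 2 lower at an unadjusted p under 0.05 in edgeR; 1 lower in DESeq2), with a median footprint difference of -0.02, beside a median mRNA difference of 1.01 for the same genes. HSP104 had 2081 and 1695 footprint CPM in BAN and 2353 and 1746 footprint CPM in CMP (-0.11 ± 0.26), and its TE difference was -1.74 ± 0.40 (adjusted p 0.014, edgeR), a call lost without BAN replicate 2, without CMP replicate 1 and with isolate weights. BTN2 had 855 and 1203 footprint CPM in BAN and 960.2 and 476 footprint CPM in CMP (0.43 ± 0.30). In TE 4 of the 20 were lower, 0 with isolate weights and 0 without BAN replicate 2 or CMP replicate 1; at an unadjusted p under 0.05 limma voom had 9 lower and edgeR 16.

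Ergosterol genes moved in the opposite sense in footprints and mRNA. Of 11 well-counted members 4 were higher in BAN footprints and 0 lower, with a median of 0.78, beside a median mRNA difference of -0.76, and 9 of 11 were higher in TE with a median of 1.69. All 4 footprint calls and 4 of the 9 TE calls remained with isolate weights, but without BAN replicate 1 the footprint number was 0 and the TE number 4, and without CMP replicate 1 the footprint number was 2. ERG6 had 744 and 574 footprint CPM in BAN and 202 and 194 footprint CPM in CMP (1.77 ± 0.29, adjusted p 0.00035, edgeR), and its TE difference was 2.81 ± 0.29 (adjusted p 1.3e-06, edgeR), which remained with isolate weights and without any 1 library. ERG11, the lanosterol demethylase, had 1709 and 1203 footprint CPM in BAN and 516 and 529 footprint CPM in CMP, with 832.5 to 5070 in the other 6 isolates, and a TE difference of 2.27 ± 0.23 (adjusted p 1.1e-06, edgeR). ERG11 mRNA was at 586 and 584 CPM in BAN and 959.6 and 1018 CPM in CMP, with 1530 to 7548 CPM in the other 6 isolates. Summed over the whole list, ergosterol footprints were 14470 and 9762 CPM in BAN and 7249 and 6641 CPM in CMP, with 13740 to 33880 CPM in the other 6 isolates, so the second BAN library lay below that range.

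Glycolysis and single genes also differed between the assays. Of 21 well-counted glycolysis and fermentation genes 2 were higher in BAN footprints, with a median of 0.43 beside -0.64 in mRNA, and 10 were higher in TE (1 with isolate weights, 2 without BAN replicate 1, 4 without CMP replicate 1). The 2 were ADH1, at 7471 and 4785 footprint CPM in BAN and 1719 and 2029 footprint CPM in CMP (1.73 ± 0.24, adjusted p 3.1e-05, edgeR), and its near-identical paralog ADH2, whose reads may be shared with it. TIR1, a cell wall mannoprotein of anaerobic growth, had 3156 and 1176 footprint CPM in BAN and 415 and 397 footprint CPM in CMP, although its mRNA was at 5.36 and 0.777 CPM in BAN and 0.521 and 0.588 CPM in CMP; its footprint difference of 2.48 ± 0.34 (adjusted p 3.1e-05, edgeR) was not called without BAN replicate 1. The other 6 isolates had 382 to 8621 footprint CPM and 3.47 to 97.6 mRNA CPM for TIR1. YHB1 (chromosome VII, 959904 to 961103), a flavohemoglobin that removes nitric oxide, had 1489 and 902 footprint CPM in BAN and 100.8 and 44.1 footprint CPM in CMP, with mRNA at 40.2 and 15.9 CPM in BAN and 63.2 and 13.3 CPM in CMP. Its footprint difference was 4.005 ± 0.33 (adjusted p 2.9e-08, edgeR) and remained without any 1 library; its TE difference of 4.42 ± 0.71 was lost with isolate weights. Elsewhere YHB1 had 104.6 to 10690 footprint CPM and 155 to 9724 mRNA CPM.

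**Figure D5:**
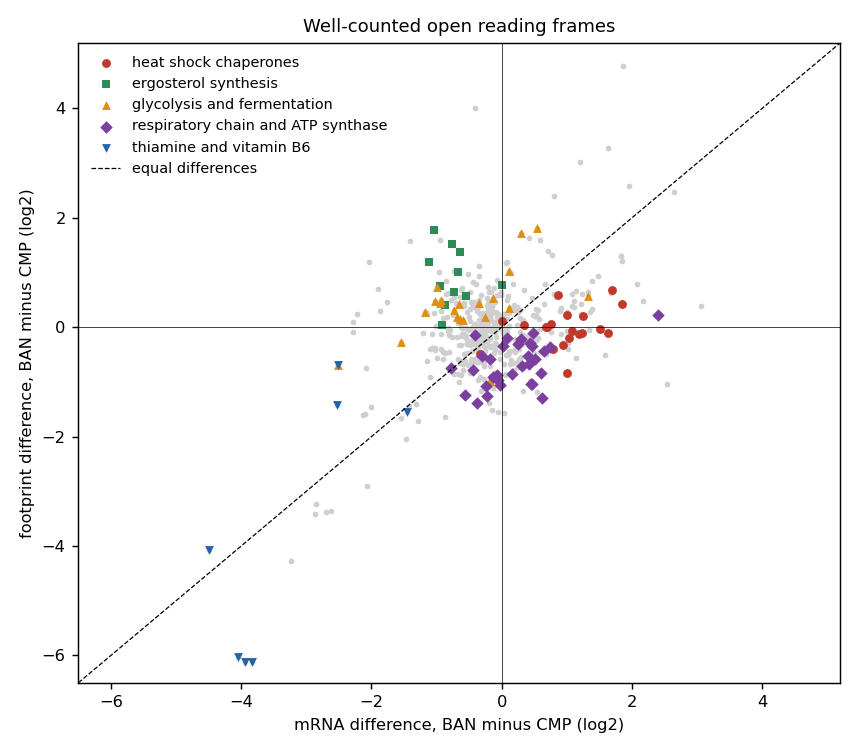
Footprint difference against mRNA difference, BAN minus CMP (log2), for 521 well-counted genes, with 5 lists marked and a dashed line where both are equal. Thiamine genes lie at the lower left, heat shock genes to the right at a footprint difference near 0, and ergosterol genes at upper left, where mRNA is lower and footprints are higher in BAN.

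Respiratory footprints were lower in BAN, while the mRNA of these genes, by which the pair was chosen, was nearly level. Summed over the 41 genes they were 17170 and 16570 CPM in BAN and 27360 and 26460 CPM in CMP. Of 32 well-counted members 6 were lower and 0 higher in edgeR's test, with a median of -0.70, beside 0.20 in mRNA; 0 of the 6 remained with isolate weights, where 16 were lower at an unadjusted p under 0.05, and 0 were called without BAN replicate 1 and 3 without CMP replicate 1. QCR2, a core subunit of complex III, had 441 and 383 footprint CPM in BAN and 1055 and 926 footprint CPM in CMP (-1.25 ± 0.26, adjusted p 0.0056, edgeR; lost without BAN replicate 1 and without CMP replicate 1). COX8, a subunit of cytochrome c oxidase, had 207 and 164 footprint CPM in BAN and 504 and 494 footprint CPM in CMP, a call lost without BAN replicate 1 and with isolate weights. CYC7, higher in BAN mRNA, had 482 and 520 footprint CPM in BAN and 509.7 and 326 footprint CPM in CMP, with no footprint call (0.22 ± 0.30, adjusted p 0.87, edgeR).

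Across the 521 well-counted genes the footprint difference correlated with the mRNA difference at r = 0.489 and rho = 0.144, a value across genes. The median mRNA difference of well-counted genes was -0.21 and their median footprint difference -0.06. The medians of well-counted list members above are to be read beside these values. The 65 genes with higher mRNA in BAN had a median mRNA difference of 1.08 and a median footprint difference of 0.28, and 8 of them were higher and 0 lower in footprints (edgeR). The 153 genes with lower mRNA had a median mRNA difference of -0.78 and a median footprint difference of -0.09, and 21 of them were lower and 9 higher in footprints.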

How the data were processed

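The authors deposited 1 table per library with raw counts of reads per open reading frame, 6696 frames in all. Per the labels' protocols, footprints were made with RNase I, ribosomal RNA was removed with riboPOOL probes, and libraries were built with the SEQuoia Express Stranded kit. Per the submitters' processing notes, CASAVA 1.8, STAR 2.7.0a and the sacCer3 build were used; how reads were counted, by strand or when matching several places, is not stated there. Names and coordinates came from the RefSeq gene table of the R64 assembly (1-based), which matched 6008 frames, 5276 of them with a symbol; the 688 unmatched frames held 0.3793% of reads.

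Tests used edgeR 4.0.16 (R 4.3.3) on these counts: filterByExpr at a minimum count of 10, TMM scaling within each assay, and the quasi-likelihood test over all 8 isolates, with Benjamini-Hochberg adjustment over all frames tested and a threshold of 0.05. TE was the interaction of assay and isolate over all 32 libraries. Alternatives used DESeq2 1.42.0 and limma 3.58.1; limma voom with one weight per isolate was added after seeing the data. The steps were tested on simulated data in which the spread between replicates was set alike for all isolates. Those data cannot show how the unequal spread of the real replicates acts on the calls. Depth per library is given in the report and limits the footprints most.

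The pair and the 49 gene lists (1356 names, 1350 matched) were chosen with earlier results of these data known. Named genes were those with the largest called mRNA rises and falls at a mean of at least 20 CPM without overlap between isolates, the largest called footprint and TE differences among well-counted genes, the called members of each list with the largest mRNA difference, a few called against their list's majority, and a set of regulators and marker enzymes. ZRT1, SUC2, ERG11 and COX8 were named after their values were seen.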

Additional observations from a re-analysis of the deposited data

How the results depend on the processing

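With 2 libraries a side, BAN replicates that differ widely gene by gene and shallow footprints, counts of calls moved with the settings. Genes higher in BAN mRNA, 824 in the fit reported, numbered 149 with the BAN and CMP libraries alone, 297 with limma voom and one weight per isolate (an alternative chosen after seeing the data), and 406 to 1017 with 1 library left out. Genes lower in mRNA, 1100, numbered 143, 263 and 732 to 1258 in the same order. Other scalings, DESeq2's test, no filter, mitochondrial frames left out and a length correction kept both counts within 1.5 times. In footprints the 25 higher became 16 with voom, 61 and 7 with means of at least 100 or 1000 CPM, and 6 to 26 with 1 library left out. The 32 lower became 52 with DESeq2's test, 17 with voom, 8 at 1000 CPM and 14 to 27. In TE the 45 higher became 72 with library totals, 78 with DESeq2's test, 9 with voom, 78 at 100 CPM, 17 at 1000 CPM and 13 to 66. The 13 lower became 35 with DESeq2's test, 7 with the 4 libraries of each assay alone, 0 with voom, 4 at 1000 CPM and 2 to 17. The cause was not tested. Without BAN replicate 1 the mRNA difference reversed for GAL7 (-0.0413, and up to 2.48 with another library left out), JEM1 (-0.1735, up to 1.643) and OPT2 (-0.06682, up to 2.207). Of 284 genes called in mRNA that the naming rule gave or that were added, 93 were called under every alternative run and 191 lost the call under at least 1.

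Deviations of same-numbered BAN and CMP libraries correlated at -0.0613 in mRNA and 0.152 in footprints, and those of same-numbered mRNA and footprint libraries at -0.0293 in BAN and 0.29 in CMP, so the replicate numbers were not taken to pair the samples. With the replicate block, 804 genes were higher and 1094 lower in mRNA, 25 and 35 in footprints, and 43 and 14 in TE. The planned search for promoter motifs was not run.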
